A study of Homo sapiens with 15 samples.

Results

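Extracellular matrix and collagen genes were followed in T47D, a human breast carcinoma cell line of luminal type that carries the oestrogen receptor, and in a T47D derivative resistant to 4-hydroxytamoxifen (4-OHT), the active form of the anti-oestrogen tamoxifen. The 43 genes were taken by symbol from the 60664 genes of the count files: collagen chains, matrix glycoproteins, proteoglycans and lysyl oxidases. Of these, 30 had enough counts to be tested, 3 were expressed but too low to be tested, and 10 had fewer than 10 counts in every library and are given as not expressed.

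RNA was sequenced in 15 libraries, 3 in each of 5 groups. Resistant cells (TR) received 1 µM 4-OHT with 5 µM erdafitinib (TR combination), 5 µM erdafitinib (TR erdafitinib), 1 µM 4-OHT (TR 4-OHT) or neither drug (TR vehicle). Parental cells (PAR vehicle) received neither drug. DMSO, the vehicle, was at 0.05% in all 15 libraries, those with drugs included. Erdafitinib inhibits the kinases of the fibroblast growth factor receptors (FGFRs). All groups spent 24 h in their own growth medium and 48 h in charcoal-stripped serum before 120 h of treatment, all with insulin. Resistant cells were maintained in charcoal-stripped serum with 1 µM 4-OHT and parental cells in full serum without it, so selection and growth history cannot be told apart between TR and PAR. TR vehicle is therefore resistant cells with 4-OHT withdrawn. Whether the resistant line is 1 clone or a pool is not given in the sources used here. The series title names FGFR inhibition, endocrine resistance and genes of the epithelial-mesenchymal transition as its subject.

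Collagens are made of chains wound into a triple helix, and a chain without its partners is usually not secreted. Fibrillar collagens build the stroma, whereas collagen IV, laminins, nidogens and the heparan sulphate proteoglycans perlecan and agrin build the basement membrane under epithelia. Fibronectin, thrombospondins, tenascins and SPARC are glycoproteins that bind cells and growth factors rather than only bearing load. In breast tumours most fibrillar matrix comes from fibroblasts, and its production by carcinoma cells is a usual marker of a mesenchymal programme.

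Totals ran from 6946684 counts in PAR vehicle 2 to 28717380 in TR erdafitinib 2 (median 22304029), and 3 counts in 1 library equalled 0.0984 to 0.477 CPM (read counts scaled to the effective library size). Libraries of a group differed along 1 main axis, holding 49.5% of the within-group variance, that ran with the GC content of transcripts (Spearman 0.722, a description over genes and not over replicates). PAR vehicle 3, TR vehicle 2 and 3, TR 4-OHT 1, TR erdafitinib 1 and TR combination 3 lay towards its GC-rich end. All 10 luminal epithelial markers were detected in every group, at a summed 3429 to 3952 CPM in TR combination, 3167 to 5188 in TR vehicle and 4520 to 5514 in PAR vehicle. The 10 fibroblast markers summed to at most 2.72 CPM in any library, with PDGFRB and DPT at 0 in TR vehicle and in PAR vehicle. Their sum was 1.496 to 2.531 CPM in TR vehicle, against 0 to 0.546 CPM in PAR vehicle. Both fibroblast markers with enough counts to be tested were called higher in TR vehicle: THY1, with 58 counts over TR vehicle and 2 over PAR vehicle (adjusted p = 0.00346), and FBLN5, with a log2 fold change of 2.22 (standard error 0.77; adjusted p = 0.0372). The 6 endothelial and the 6 white cell markers summed to at most 0.155 and 0.236 CPM. Of the 6 smooth muscle or pericyte markers, which summed to 46.0 to 135 CPM in TR vehicle and 21.3 to 47.7 in PAR vehicle, NOTCH3 held the larger part and DES stood at 0 in both groups. Both tested ones were called higher in TR vehicle, NOTCH3 with a log2 fold change of 1.62 (standard error 0.44; adjusted p = 0.0103) and RGS5 of 4.25 (standard error 0.58; adjusted p = 5.48e-05). Of the luminal markers, FOXA1, ESR1, XBP1 and AGR2 were called lower in TR vehicle and GATA3 higher. The part of these markers in the matrix values was not tested.

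The matrix RNA of these cells came from few genes. Levels of different genes were compared per length, as CPM per kilobase of gene model. On that scale the 43 genes summed to 247 ± 15.4 in TR combination, 262 ± 9.87 in TR erdafitinib, 361 ± 26.0 in TR 4-OHT, 349.6 ± 15.3 in TR vehicle and 285 ± 14.7 in PAR vehicle (SD, n = 3 each). In PAR vehicle 3 genes held most of the sum: THBS1 (43.7%), EFEMP1 (37.5%) and COL12A1 (12.6%). In TR vehicle the sum was spread more widely, with THBS1 at 25.7%, EFEMP1 at 20.9%, VCAN at 14.4%, SPARC at 13.1% and COL12A1 at 7.23%. In TR combination EFEMP1 (65.4 ± 10.1 CPM per kilobase) and THBS1 (60.7 ± 8.39) led, and these neighbours did not differ beyond their spread. VCAN followed at 43.5 ± 11.9 and SPARC at 23.2 ± 5.98 CPM per kilobase.

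**Figure D1:**
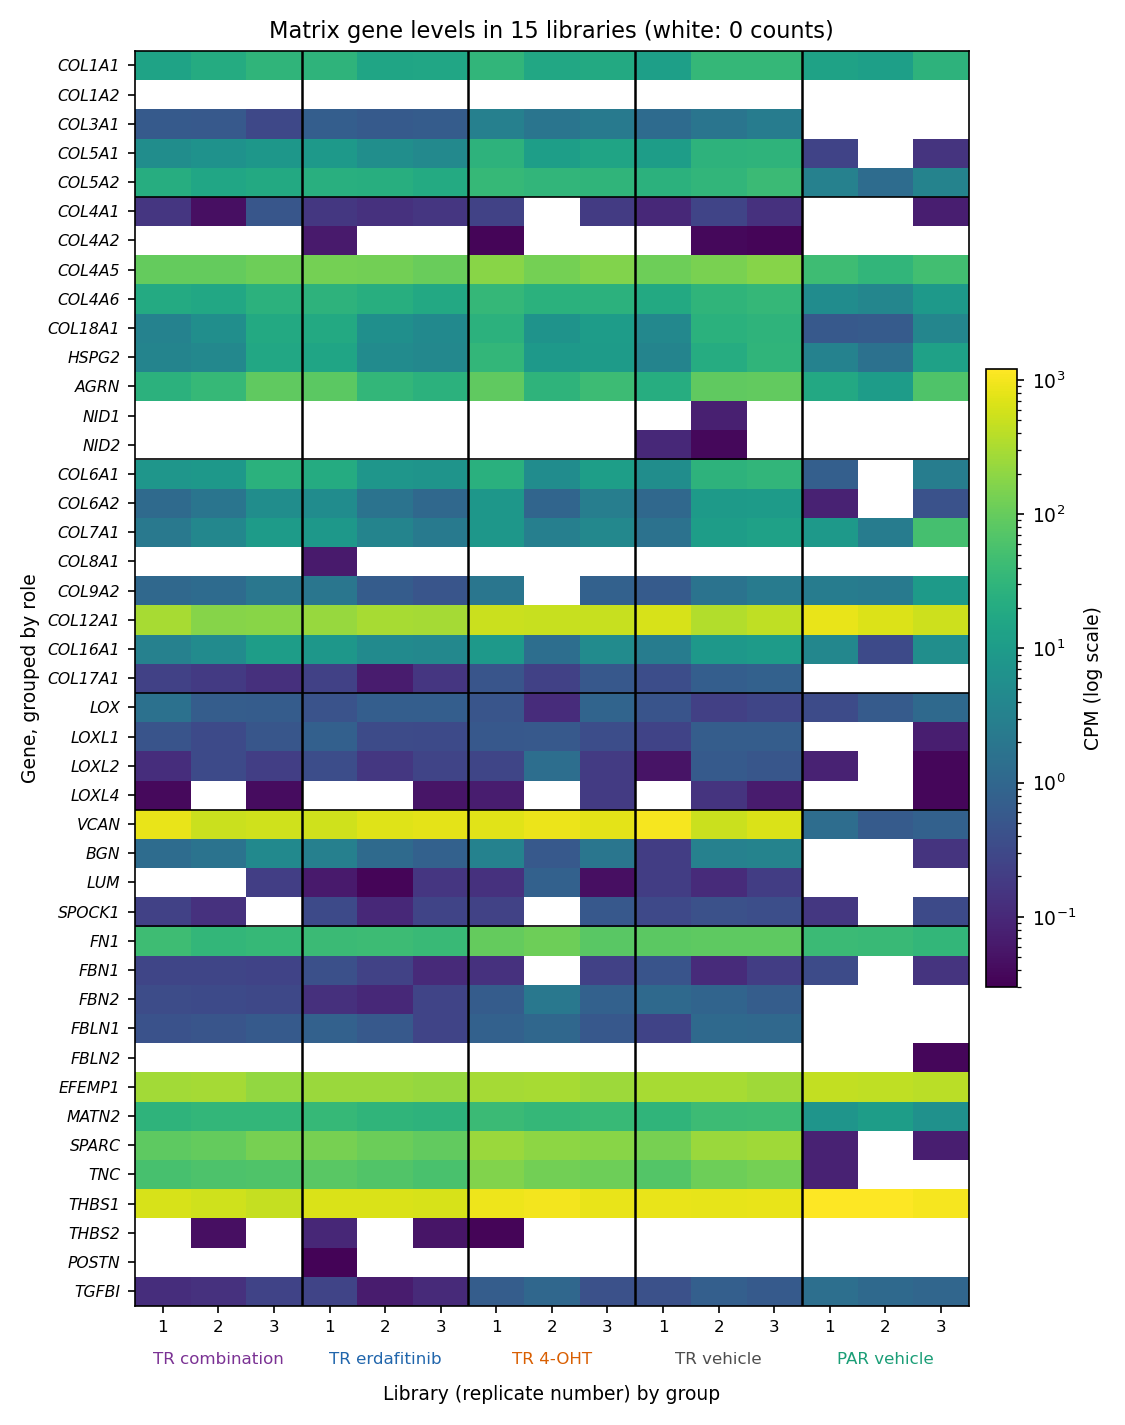
Level of each of the 43 matrix genes (rows, grouped by role) in each of the 15 libraries (columns, by group), as CPM on a log colour scale with 0 counts in white. The PAR vehicle columns are white or dark for SPARC, TNC, COL3A1, COL17A1, FBN2 and FBLN1, and COL1A2 is white in all 15 libraries.

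Several collagens were present without a usual chain partner. COL1A1, the alpha-1 chain of collagen I, stood at 21.5 ± 8.22 CPM in TR combination, 27.0 ± 13.1 CPM in TR vehicle and 17.9 ± 9.02 CPM in PAR vehicle (SD, n = 3 each). COL1A2, the other chain of collagen I, had 0 counts in all 15 libraries, which allows up to 0.00911 CPM over the series. COL6A1 and COL6A2, chains of the collagen VI microfibril, were read in all 12 TR libraries, whereas their partner COL6A3 had 1 count over TR combination, 4 over TR vehicle and 3 over PAR vehicle. The other genes not expressed were COL4A2, COL8A1, THBS2, POSTN, LOXL4, LUM, FBLN2, NID1 and NID2, with 1 to 36 counts each over the 15 libraries. Periostin (POSTN), lumican (LUM) and thrombospondin 2 (THBS2) are typical products of fibroblasts. COL4A1, FBN1 and SPOCK1 passed 10 counts in a library but were left out of the test, and their highest library stood at 0.558 CPM (SPOCK1).

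Collagen IV genes lie in head-to-head pairs, and 1 pair was nearly unread while the other was read. COL4A1 and COL4A2, the common chains of basement membranes, start 127 bases apart on opposite strands of chromosome 13 in the RefSeq annotation of GRCh38.p14. COL4A5 and COL4A6, chains of more restricted membranes, start 380 bases apart on chromosome X, with a second COL4A6 start 1416 bases from that of COL4A5. The stretch between the first pair (chr13:110307158-110307283, plus strand, from RefSeq) and the 250 bases before the COL4A5 start (chrX:108439588-108439837, plus strand) are shown because they lie at the starts of the nearly unread and of the read pair. Capitals mark matches on either strand to motifs searched in all promoters: GGGCGG in the first and CAGAC (reverse complement GTCTG) in the second.
COL4A1 COL4A2 stretch: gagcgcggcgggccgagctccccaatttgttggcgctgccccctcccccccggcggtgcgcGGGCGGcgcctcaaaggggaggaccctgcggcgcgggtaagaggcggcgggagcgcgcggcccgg
COL4A5 upstream: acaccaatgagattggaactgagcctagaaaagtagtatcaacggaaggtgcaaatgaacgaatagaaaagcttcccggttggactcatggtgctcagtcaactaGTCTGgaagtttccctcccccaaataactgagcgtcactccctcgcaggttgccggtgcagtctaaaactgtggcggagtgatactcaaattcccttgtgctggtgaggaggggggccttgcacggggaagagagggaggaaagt
COL4A1 had 0.158, 0.0454 and 0.514 CPM in TR combination, 0.164, 0.136 and 0.161 CPM in TR erdafitinib, 0.241, 0 and 0.186 CPM in TR 4-OHT, 0.103, 0.262 and 0.137 CPM in TR vehicle and 0, 0 and 0.0728 CPM in PAR vehicle. With 13 counts over TR vehicle and 2 over PAR vehicle, its ratio was 3.94 (95% counting interval 0.892 to 36.0), an interval that holds 1. Over TR combination, against PAR vehicle, it was 5.49 (95% counting interval 1.30 to 49.0). COL4A2 had 2 counts over TR vehicle and 0 over PAR vehicle. The files' gene models of COL4A1 and COL4A2 overlap, and counting by strand keeps their reads apart. The 126 bases between the COL4A1 and COL4A2 starts were 80.2% G or C, and the 250 bases before the COL4A5 start 51.2%. These regions differ in kind and length, and the part of GC content in the counts was not tested.

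Resistant cells on vehicle were compared with parental cells on vehicle to describe the resistant state. Of the 30 matrix genes tested, 18 were higher in TR vehicle and 2 were lower, at an adjusted p under 0.05 in edgeR's quasi-likelihood test with Benjamini-Hochberg adjustment over 16210 genes. Over all genes tested, 35.9% were called, 19.9% higher and 16% lower. The members were chosen with earlier results of these data known, so these counts do not test matrix genes as a set. COL3A1, COL17A1, FBN2 and FBLN1 had 0 counts over PAR vehicle and passed the count filter through resistant libraries alone. The median log2 fold change of the 30 was 2.66, or 2.78 with genes near 0 in PAR set at their bound or ratio, against 0.07 over all genes tested. Without overlap between the groups, 18 of the 30 stood higher in TR vehicle (22.5% of all genes) and 3 stood lower (18.5%), and 21 had an unadjusted p under 0.05 (44.6% of all genes). In bulk RNA, fewer cells of a type and less RNA per cell cannot be told apart. The p-values measure the spread between these libraries. The labels call them biological replicates but do not name separate cultures, so this spread may be technical.

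SPARC, TNC and VCAN were near absent in parental cells and abundant in resistant cells. SPARC, a collagen-binding glycoprotein (ENSG00000113140, chromosome 5, 151661096 to 151686975, minus strand), had 138, 241 and 262 CPM in TR vehicle, against 0.0839, 0 and 0.0728 CPM in PAR vehicle. TNC, tenascin C (ENSG00000041982, chromosome 9, 115019575 to 115118257, minus strand), had 69.0, 117 and 130.1 CPM in TR vehicle, against 0.0839, 0 and 0 CPM in PAR vehicle. VCAN, versican, a large chondroitin sulphate proteoglycan (ENSG00000038427, chromosome 5, 83471618 to 83582303, plus strand), had 1025, 517 and 664 CPM in TR vehicle, against 1.34, 0.635 and 0.8005 CPM in PAR vehicle. The groups did not overlap for any of the 3, and no PAR library passed 1.34 CPM. With 3 counts of SPARC over PAR vehicle the ratio was 3392 (95% counting interval 1160.5 to 16449), and with 1 count of TNC it was 5008 (95% counting interval 899 to 197822). Both were called (adjusted p = 5.24e-10 for SPARC and 8.25e-10 for TNC). VCAN had a log2 fold change of 9.61 (standard error 0.39; adjusted p = 5.58e-10). TR vehicle 1, the lowest library for SPARC and TNC, was the highest for VCAN.

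The 250 bases before the SPARC start (chr5:151686916-151687165, minus strand) and the TNC start (chr9:115118158-115118407, minus strand) are shown from RefSeq (GRCh38.p14), since both genes were near 0 in 1 cell line and high in the other. Capitals mark matches on either strand to 5 motifs: TATAAA (a form of the TATA box), GGGCGG (bound by SP1), TGANTCA (AP-1), GGAATG (TEAD factors) and CAGAC (SMAD proteins). Only these letters were searched, so a TATA box of other letters is not marked.
SPARC upstream: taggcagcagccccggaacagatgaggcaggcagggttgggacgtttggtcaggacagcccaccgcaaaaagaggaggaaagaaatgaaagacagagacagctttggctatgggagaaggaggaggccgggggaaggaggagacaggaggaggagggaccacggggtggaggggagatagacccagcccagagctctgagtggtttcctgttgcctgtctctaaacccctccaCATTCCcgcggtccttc
TNC upstream: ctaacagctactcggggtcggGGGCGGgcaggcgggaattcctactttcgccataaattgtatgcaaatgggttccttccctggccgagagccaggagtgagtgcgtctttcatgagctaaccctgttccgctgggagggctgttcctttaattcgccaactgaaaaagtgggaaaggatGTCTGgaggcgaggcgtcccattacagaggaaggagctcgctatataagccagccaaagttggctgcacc
The SPARC stretch held GGAATG on the opposite strand and no GGGCGG. The TNC stretch held GGGCGG and, on the opposite strand, CAGAC. A match describes the sequence and does not show a bound site.

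Fibrillar collagens were higher in TR vehicle, apart from COL1A1. COL5A1 and COL5A2 encode the chains of collagen V, which starts fibrils. COL5A1 had 11.1, 28.1 and 30.1 CPM in TR vehicle, against 0.252, 0 and 0.146 CPM in PAR vehicle. COL5A2 had 27.1, 32.1 and 41.2 CPM in TR vehicle, against 3.10, 1.27 and 3.49 CPM in PAR vehicle. Neither overlapped, with log2 fold changes of 7.20 (standard error 0.66; adjusted p = 1.42e-06) for COL5A1 and 3.60 (standard error 0.29; adjusted p = 4.30e-07) for COL5A2. COL3A1, the chain of collagen III, had 1.24, 1.83 and 2.56 CPM in TR vehicle and 0 counts in PAR vehicle. Against 3 counts over PAR it was at least 29.9-fold higher (adjusted p = 1.17e-05). COL1A1 had 11.9, 34.2 and 34.8 CPM in TR vehicle, against 13.4, 11.9 and 28.2 CPM in PAR vehicle, which overlapped, and its log2 fold change was 0.58 (95% interval -0.40 to 1.56; adjusted p = 0.350).

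Among basement membrane genes, both read collagen IV chains were higher. COL4A5 had 117, 143 and 178 CPM in TR vehicle, against 44.9, 31.5 and 48.9 CPM in PAR vehicle, a log2 fold change of 1.80 (standard error 0.20; adjusted p = 8.10e-06). COL4A6 had 18.6, 30.9 and 34.5 CPM in TR vehicle, against 5.12, 3.81 and 8.73 CPM in PAR vehicle, a log2 fold change of 2.21 (standard error 0.32; adjusted p = 9.94e-05). The groups did not overlap for either gene of the pair. COL18A1, a basement membrane collagen whose cleavage releases endostatin, had 4.18, 26.1 and 30.1 CPM in TR vehicle, against 0.587, 0.635 and 3.93 CPM in PAR vehicle, with a log2 fold change of 3.38 (standard error 0.96; adjusted p = 0.0135). TR vehicle 1 stood just above PAR vehicle 3 for COL18A1, and its call was lost without PAR vehicle 1 (adjusted p = 0.0543) or PAR vehicle 2 (adjusted p = 0.0517). Perlecan (HSPG2) and agrin (AGRN) overlapped, with log2 fold changes of 1.55 (95% interval -0.39 to 3.49) and 1.13 (-0.42 to 2.68).

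Of the other collagens, collagen VI and XVII chains were higher. COL6A1 had 5.52, 27.8 and 32.7 CPM in TR vehicle, against 0.755, 0 and 2.69 CPM in PAR vehicle. COL6A2 had 1.08, 9.65 and 9.95 CPM in TR vehicle, against 0.0839, 0 and 0.437 CPM in PAR vehicle. Both were lowest in TR vehicle 1 and highest within PAR in PAR vehicle 3, without overlap. Their log2 fold changes were 4.00 (standard error 0.94; adjusted p = 0.00411) for COL6A1 and 4.79 (standard error 1.16; adjusted p = 0.00504) for COL6A2. COL17A1, a transmembrane collagen of hemidesmosomes, had 0.361, 0.711 and 0.821 CPM in TR vehicle and 0 counts in PAR vehicle, at least 10.1-fold higher against 3 counts over PAR (adjusted p = 5.87e-04). COL12A1, COL7A1, COL9A2 and COL16A1 were not called, with adjusted p of 0.120, 0.281, 0.140 and 0.331. COL7A1, the anchoring fibril collagen, had 1.65, 11.1 and 12.9 CPM in TR vehicle, against 9.06, 2.54 and 53.4 CPM in PAR vehicle, so PAR vehicle 3 alone stood far above the rest (95% interval of the log2 fold change -3.35 to 0.63).

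FBN2, FBLN1, LOXL1, BGN and MATN2 were also higher. FBN2, fibrillin 2, had 1.13, 0.898 and 0.684 CPM in TR vehicle and 0 counts in PAR vehicle. FBLN1, fibulin 1, had 0.258, 1.12 and 1.06 CPM in TR vehicle and 0 counts in PAR vehicle. Each was at least 13.3-fold higher against 3 counts over PAR, since both had 66 counts over TR vehicle (adjusted p = 3.19e-04 for FBN2 and 7.29e-04 for FBLN1). LOXL1, a lysyl oxidase that cross-links elastin, had 0.258, 0.673 and 0.684 CPM in TR vehicle, against 0, 0 and 0.0728 CPM in PAR vehicle. With 2 counts over PAR its ratio was 13.0 (95% counting interval 3.40 to 111), and it was called (adjusted p = 0.00351). BGN, the small proteoglycan biglycan, had 0.206, 3.18 and 3.39 CPM in TR vehicle, against 0, 0 and 0.146 CPM in PAR vehicle, a log2 fold change of 4.74 (standard error 1.22; adjusted p = 0.00751). MATN2, matrilin 2, an adaptor between matrix filaments, had 31.3, 43.7 and 44.8 CPM in TR vehicle, against 7.38, 11.1 and 6.48 CPM in PAR vehicle, a log2 fold change of 2.29 (standard error 0.22; adjusted p = 1.91e-06). All 5 separated without overlap. For BGN, FBLN1 and LOXL1, however, TR vehicle 1 stood below 0.477 CPM, the level that 3 counts equal in PAR vehicle 2. FBLN1, LOXL1, BGN and COL17A1 had too few counts to be tested in a fit of only these groups. LOX and LOXL2, the other tested cross-linking enzymes, were not called (adjusted p = 0.156 and 0.0570). PAR vehicle 3 held most of the few parental counts of LOXL1, BGN, COL6A1 and COL6A2, and PAR vehicle 1 and 2 together held 0 of LOXL1, 0 of BGN and 1 of COL6A2. Without PAR vehicle 3, an alternative chosen after seeing the data, LOXL1 was at least 3.46-fold and BGN at least 15.1-fold higher against 3 counts over PAR vehicle 1 and 2, and COL6A2 had a ratio of 138 (95% counting interval 24.6 to 5451). The log2 fold changes of COL6A1 and COL18A1 were then 5.58 and 5.07.

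Fibronectin was higher and 2 of the most abundant matrix genes were lower. FN1, fibronectin, which links integrins to collagen and heparin (ENSG00000115414, chromosome 2, 215360440 to 215436073, minus strand), had 82.4, 87.4 and 88.4 CPM in TR vehicle, against 41.9, 39.9 and 32.9 CPM in PAR vehicle, a log2 fold change of 1.17 (standard error 0.17; adjusted p = 7.67e-05). THBS1, thrombospondin 1, an adhesive glycoprotein that activates latent TGF-beta (ENSG00000137801, chromosome 15, 39581079 to 39599466, plus strand), had 829, 797 and 843 CPM in TR vehicle, against 1176, 1201 and 1043 CPM in PAR vehicle, a log2 fold change of -0.47 (standard error 0.13; adjusted p = 0.0124). EFEMP1, fibulin 3, had 296, 303 and 267 CPM in TR vehicle, against 445, 428 and 397 CPM in PAR vehicle, a log2 fold change of -0.55 (standard error 0.14; adjusted p = 0.00537). None of the 3 overlapped. The calls of THBS1 and EFEMP1 were lost with no filter on low counts (adjusted p = 0.120 and 0.0515), and that of THBS1 also with only the groups compared in the fit (adjusted p = 0.0863). TGFBI, a TGF-beta-induced protein that binds integrins, had 0.413, 0.748 and 0.616 CPM in TR vehicle, against 1.43, 1.11 and 0.982 CPM in PAR vehicle, without overlap but not called (log2 fold change -0.96, 95% interval -2.02 to 0.10).

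**Figure D2:**
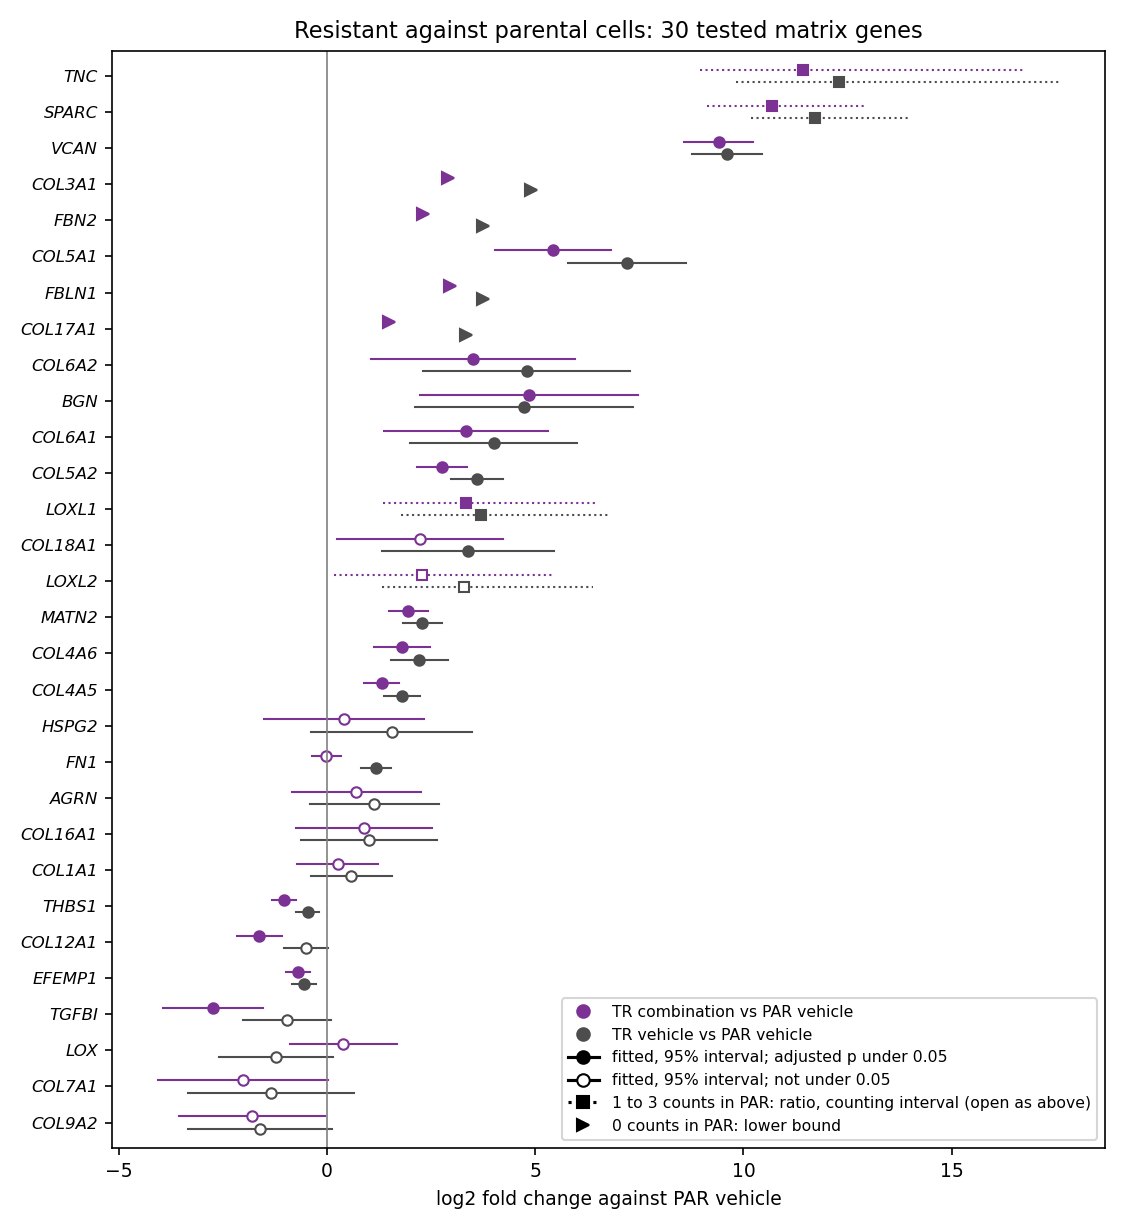
log2 fold change against PAR vehicle (horizontal axis) of the 30 tested matrix genes (rows) for TR combination and for TR vehicle, with 95% intervals. TNC, SPARC and VCAN stand far to the right in both comparisons, and FN1 stands at 1.17 in TR vehicle and at -0.02 in TR combination.

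Of the 20 tested genes of collagen processing and cross-linking, 6 were higher in TR vehicle and 1 was lower (median log2 fold change 0.48), so that 35% were called, where 35.9% of all genes were. The procollagen proteinase genes ADAMTS3 (4.76), TLL1 (3.32) and BMP1 (2.21) and the hydroxylysine galactosyltransferase gene COLGALT1 (1.49) were higher, as log2 fold changes. P4HA1, a prolyl 4-hydroxylase subunit named after its value was seen, was the 1 that was lower (-0.78). Of 7 other collagens tested, COL27A1 (5.36), COL21A1 (5.19) and COL26A1 (3.14) were higher, and the collagen IX chain COL9A3 was lower (-2.41), so that 57.1% were called. Of 25 other glycoproteins and proteoglycans tested, 13 were higher and 1 lower (median 1.67), so that 56% were called. TNR and BCAN, tenascin R and brevican, both known from brain matrix, stood at 37.0 ± 5.16 and 9.04 ± 3.09 CPM in TR vehicle, against 1 and 9 counts over PAR vehicle. HMCN1, hemicentin 1, had a log2 fold change of 4.97, and SMOC2 had 18 counts over TR vehicle and 0 over PAR vehicle. MGP, matrix Gla protein, an inhibitor of calcification named after its value was seen, was lower, at 167 ± 12.3 CPM in TR vehicle against 2249 ± 379 CPM in PAR vehicle, a log2 fold change of -3.75 (standard error 0.20; adjusted p = 5.11e-09).

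Treating resistant cells with 4-OHT for 120 h, against vehicle, called none of the 30 matrix genes. No gene was called among all those tested (0%), with 127 genes (0.783%) and none of the 30 at an unadjusted p under 0.05, and DESeq2's Wald test also called 0 genes. The median log2 fold change of the 30 was -0.06, against -0.05 over all genes tested. SPARC had 239.9, 199 and 180.1 CPM in TR 4-OHT, against 138, 241 and 262 CPM in TR vehicle. FN1 had 96.9, 115 and 79.4 CPM in TR 4-OHT, against 82.4, 87.4 and 88.4 CPM in TR vehicle. Both overlapped, with 95% intervals of the log2 fold change of -0.57 to 0.47 for SPARC and -0.18 to 0.52 for FN1. TNC had a 95% interval of -0.18 to 0.85 and overlapped as well. Of the 30, 1 stood higher in TR 4-OHT without overlap (THBS1, where 1.7% of all genes did so) and 0 stood lower (1.94%). Adding 4-OHT to erdafitinib also called none of the 30 (0% of all genes, with 0.642% of all genes and none of the 30 at an unadjusted p under 0.05, and 16 genes and none of the 30 with DESeq2). The log2 fold changes of TR combination over TR erdafitinib had 95% intervals of -0.60 to 0.44 for SPARC, -0.68 to 0.35 for TNC and -0.48 to 0.21 for FN1. Without overlap, 1 of the 30 stood higher in TR combination (FBN2, 2.97% of all genes) and 2 stood lower (COL3A1 and THBS1, 2.39%). COL4A1 had 17 counts over TR combination, 12 over TR erdafitinib, 11 over TR 4-OHT and 13 over TR vehicle.

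Erdafitinib lowered a set of the matrix genes that were on in resistant cells. Averaged over the comparisons with and without 4-OHT (6 libraries with erdafitinib against 6 without), 9 of the 30 tested genes were lower and none was higher, where 1.71% of all genes were called, 0.938% lower and 0.777% higher. The members were chosen with earlier results of these data known. The counts here and in each erdafitinib comparison therefore do not test them as a set. FBN2 and TGFBI passed the count filter through libraries without erdafitinib alone. On leaving out 1 library, the share of all genes called ran from 0.829% without TR erdafitinib 3, with 5 members called, to 2.64% without TR vehicle 1, with 10 members called, and the fewest members, 4, were called without TR erdafitinib 2 (0.85% of all genes). The median log2 fold change of the 30 was -0.55, against -0.01 over all genes tested; 28 of the 30 were negative, and 12 had an unadjusted p under 0.05 (11.7% of all genes). In 8 of the 30, all 6 libraries with erdafitinib lay below all 6 without, where 1.77% of all genes did so, and 0 of the 30 lay above (1.61% of all genes). Of the 9, FN1, COL3A1, COL5A1, SPARC, TNC and FBN2 were higher in TR vehicle than in PAR vehicle, THBS1 was lower, and COL12A1 and TGFBI were not called there.

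Without 4-OHT, TR erdafitinib against TR vehicle called FN1 alone of the 30 (1 lower, where 0.0925% of all genes were called, 0.0494% lower and 0.0432% higher), and 11 of the 30 had an unadjusted p under 0.05 (4.32% of all genes). In 11 of the 30 the TR erdafitinib libraries all lay below (5.56% of all genes), and in 0 all above (6.01%). On 4-OHT, TR combination against TR 4-OHT called FN1, THBS1, COL3A1 and COL12A1, all lower (0.642% of all genes were called, 0.345% lower and 0.296% higher). Here 11 of the 30 had an unadjusted p under 0.05 (8.67% of all genes), 12 lay below without overlap (7.43%) and 0 above (8.29%). The median log2 fold changes of the 30 were -0.62 without 4-OHT and -0.60 on 4-OHT. The difference between these effects was called for none of the 30 (0% of all genes, with 134 genes (0.827%) and, of the 30, THBS1 alone at an unadjusted p under 0.05, and 1 gene but none of the 30 with DESeq2). Its 95% interval was -0.80 to 0.18 for FN1, -0.76 to 0.71 for SPARC, -1.23 to 0.23 for TNC and -0.82 to -0.02 for THBS1, so the effects are not shown to act alike.

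FN1 had the smallest p of the 30. It had 44.5, 32.8 and 35.8 CPM in TR combination, against 96.9, 115 and 79.4 CPM in TR 4-OHT, and 41.4, 43.3 and 39.7 CPM in TR erdafitinib, against 82.4, 87.4 and 88.4 CPM in TR vehicle. All 6 libraries with erdafitinib lay below all 6 without. Its log2 fold change was -1.36 (standard error 0.16; adjusted p = 7.58e-04) on 4-OHT, -1.05 (standard error 0.16; adjusted p = 0.0266) without it and -1.21 (standard error 0.12; adjusted p = 6.55e-05) over both. The call without 4-OHT was lost on leaving out TR erdafitinib 1 (adjusted p = 0.193), 2 (0.115) or 3 (0.177), or TR vehicle 2 (0.0903) or 3 (0.125), and with only the groups compared in the fit (adjusted p = 0.249). The calls on 4-OHT and over both held in every such fit. THBS1 had 630.0, 562 and 477 CPM in TR combination, against 929, 996 and 859.5 CPM in TR 4-OHT, and 670.3, 668 and 643 CPM in TR erdafitinib, against 829, 797 and 843 CPM in TR vehicle. Here too the 6 and 6 libraries did not overlap, with log2 fold changes of -0.74 (standard error 0.13; adjusted p = 0.0182) on 4-OHT and -0.53 (standard error 0.09; adjusted p = 0.00913) over both. The windows before the FN1 start (chr2:215436069-215436318, minus strand) and the THBS1 start (chr15:39580829-39581078, plus strand) are shown from RefSeq (GRCh38.p14) as those of the most clearly lowered abundant genes, with the 5 motifs in capitals as above.
FN1 upstream: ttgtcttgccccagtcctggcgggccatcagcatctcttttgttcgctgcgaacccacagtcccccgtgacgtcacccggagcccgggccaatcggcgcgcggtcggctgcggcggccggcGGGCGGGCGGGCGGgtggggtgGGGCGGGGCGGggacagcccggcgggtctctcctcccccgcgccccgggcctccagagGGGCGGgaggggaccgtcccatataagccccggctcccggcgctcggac
THBS1 upstream: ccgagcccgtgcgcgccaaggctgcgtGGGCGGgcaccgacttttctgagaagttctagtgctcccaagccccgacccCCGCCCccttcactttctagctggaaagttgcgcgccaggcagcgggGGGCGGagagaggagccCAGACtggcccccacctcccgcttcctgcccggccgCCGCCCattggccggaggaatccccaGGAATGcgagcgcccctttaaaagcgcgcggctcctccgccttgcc
The FN1 stretch held GGGCGG at several positions (some overlapping), and the THBS1 stretch held GGGCGG on both strands, CAGAC and GGAATG.

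Collagen chains were next. COL3A1 had 0.591, 0.591 and 0.2998 CPM in TR combination, against 2.99, 1.87 and 2.32 CPM in TR 4-OHT, and 0.722, 0.613 and 0.644 CPM in TR erdafitinib, against 1.24, 1.83 and 2.56 CPM in TR vehicle. COL12A1, a collagen that decorates fibrils (ENSG00000111799, chromosome 6, 75084326 to 75206267, minus strand), had 301, 178 and 179 CPM in TR combination, against 507, 494 and 489.8 CPM in TR 4-OHT, and 234, 304 and 291 CPM in TR erdafitinib, against 639.7, 357 and 427 CPM in TR vehicle. Neither overlapped between the 6 and 6 libraries. Their log2 fold changes over both were -1.89 (standard error 0.29; adjusted p = 0.00502) for COL3A1 and -0.98 (standard error 0.18; adjusted p = 0.00974) for COL12A1. COL5A1 had 5.32, 6.72 and 8.27 CPM in TR combination, against 28.0, 11.3 and 14.8 CPM in TR 4-OHT, and 9.41, 5.65 and 4.40 CPM in TR erdafitinib, against 11.1, 28.1 and 30.1 CPM in TR vehicle, again without overlap, and its log2 fold change over both was -1.62 (standard error 0.31; adjusted p = 0.0158). Its partner COL5A2 had a log2 fold change of -0.71, separated as well and was not called (95% interval -1.09 to -0.32; adjusted p = 0.0724). The collagen IV pair COL4A5 and COL4A6 was not called either, with 95% intervals of -0.73 to -0.15 and -0.84 to 0.07.

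The glycoproteins SPARC, TNC, FBN2 and TGFBI were also lower with erdafitinib. SPARC had 86.7, 97.3 and 139 CPM in TR combination, against 239.9, 199 and 180.1 CPM in TR 4-OHT, and 135, 112 and 94.2 CPM in TR erdafitinib, against 138, 241 and 262 CPM in TR vehicle. TNC had 56.0, 61.8 and 64.1 CPM in TR combination, against 159.7, 126 and 114 CPM in TR 4-OHT, and 78.5, 68.9 and 56.1 CPM in TR erdafitinib, against 69.0, 117 and 130.1 CPM in TR vehicle. TR vehicle 1 was low for both and overlapped the libraries with erdafitinib. The log2 fold change over both was -0.92 (standard error 0.17; adjusted p = 0.0129) for SPARC and -0.88 (standard error 0.17; adjusted p = 0.0158) for TNC. FBN2 had 0.355, 0.318 and 0.2998 CPM in TR combination, against 0.654, 2.105 and 0.790 CPM in TR 4-OHT, and 0.131, 0.102 and 0.268 CPM in TR erdafitinib, against 1.13, 0.898 and 0.684 CPM in TR vehicle. TGFBI had 0.118, 0.136 and 0.257 CPM in TR combination, against 0.688, 1.05 and 0.418 CPM in TR 4-OHT, and 0.262, 0.0681 and 0.107 CPM in TR erdafitinib, against 0.413, 0.748 and 0.616 CPM in TR vehicle. Both rest on at most 66 counts a group and did not overlap between the 6 and 6 libraries, with log2 fold changes of -2.11 (standard error 0.40; adjusted p = 0.0195) and -1.97 (standard error 0.40; adjusted p = 0.0198). VCAN, the third gene near absent in parental cells, had 839, 523 and 552 CPM in TR combination, against 752, 863 and 793 CPM in TR 4-OHT, and 553, 717 and 780.3 CPM in TR erdafitinib, against 1025, 517 and 664 CPM in TR vehicle. It overlapped and was not called (log2 fold change -0.22, 95% interval -0.60 to 0.17).

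**Figure D3:**
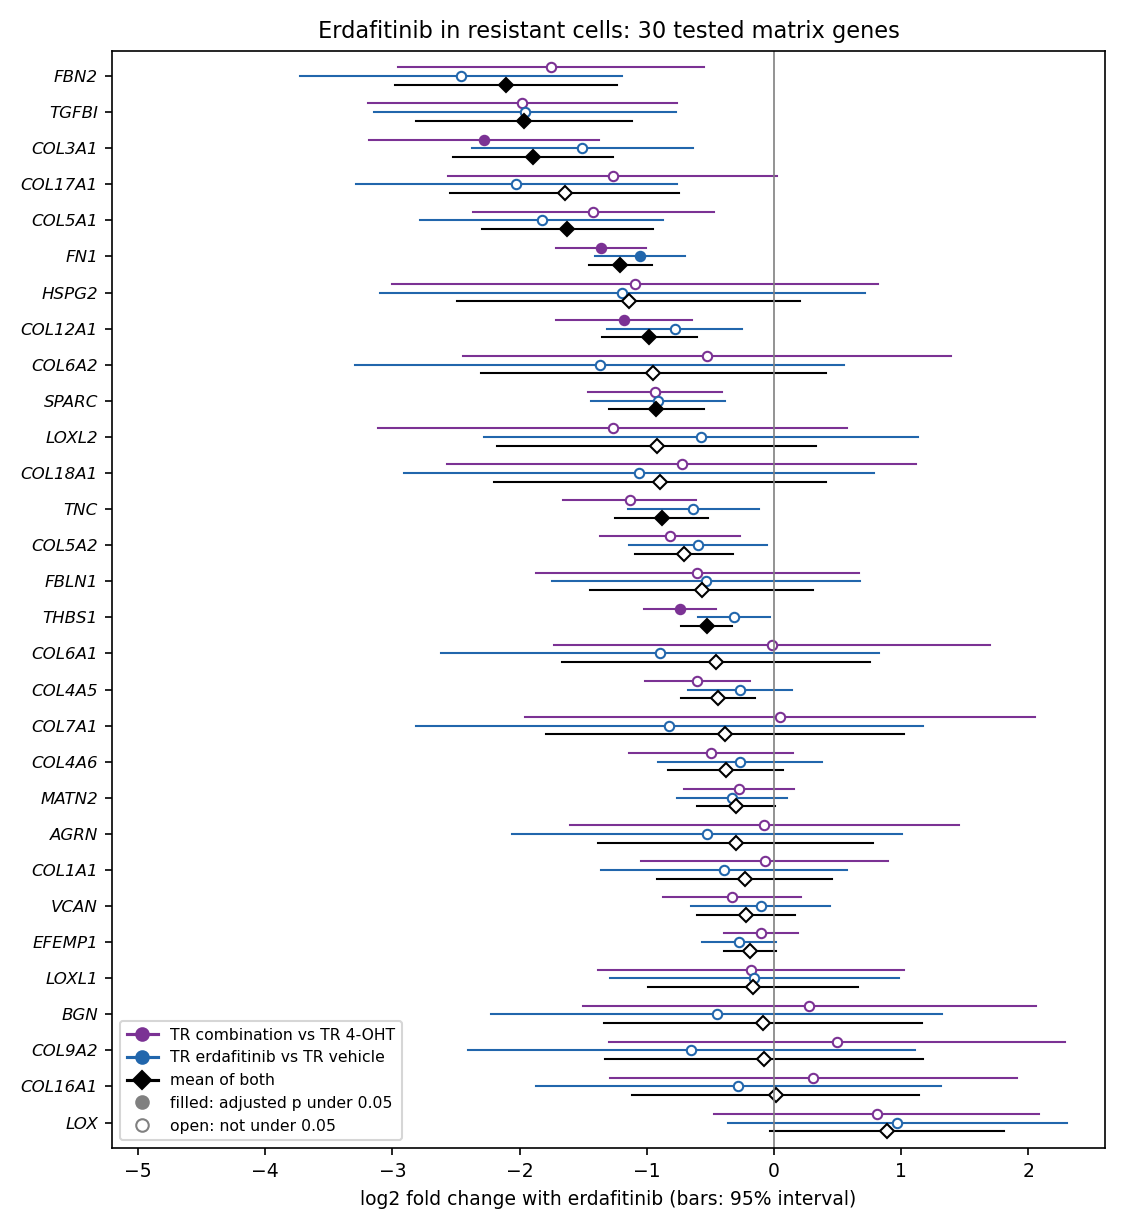
log2 fold change with erdafitinib (horizontal axis, 95% intervals) of the 30 tested matrix genes (rows) on 4-OHT, without 4-OHT and as the mean of both. The 9 filled diamonds all lie left of 0, between -2.11 for FBN2 and -0.53 for THBS1, and no gene to the right of 0 is filled.

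**Figure D4:**
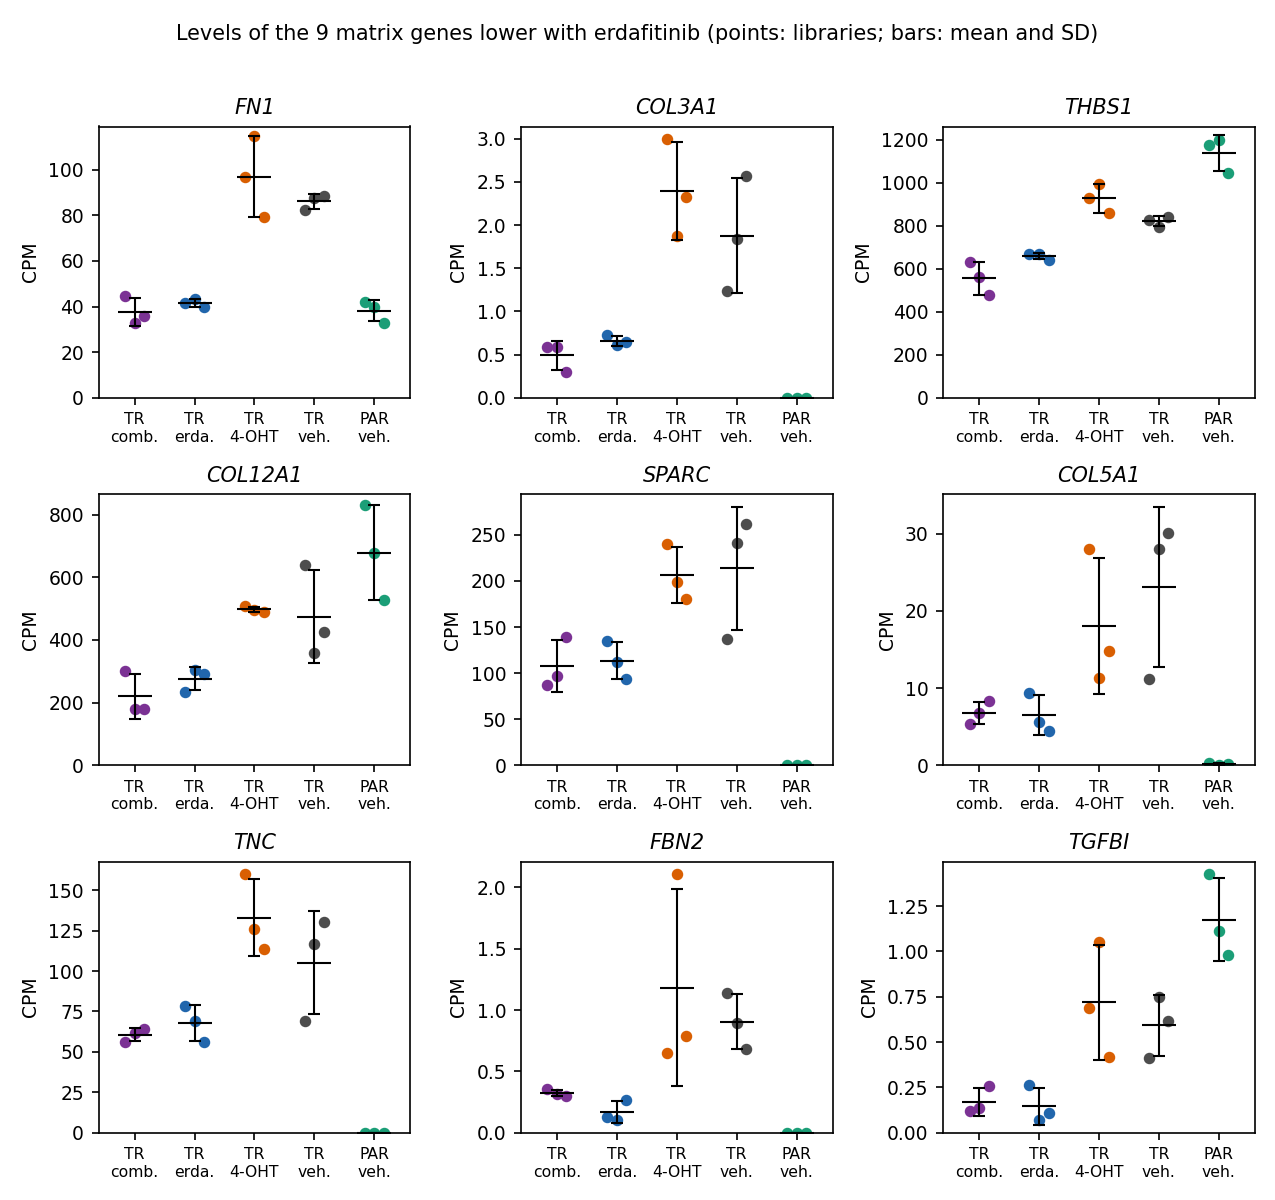
Level (CPM, linear axes from 0) of the 9 genes lower with erdafitinib over both comparisons, with a point per library and the mean and SD of each group of 3. The libraries with erdafitinib sit below those without it, except that TR vehicle 1 overlaps them for SPARC and TNC, and PAR vehicle is near 0 for COL3A1, SPARC, COL5A1, TNC and FBN2.

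FN1, COL3A1, THBS1 and COL12A1 kept their calls over both comparisons on leaving out any of the 12 resistant libraries. SPARC lost its call without TR erdafitinib 2 (adjusted p = 0.0534) or 3 (0.0515). TNC lost it without TR combination 1 or 2, TR erdafitinib 2 or 3, TR 4-OHT 1 or TR vehicle 3 (0.0506 to 0.0622). COL5A1 lost it without TR combination 1 or 2, TR erdafitinib 2 or 3, TR 4-OHT 1 or TR vehicle 2 or 3 (0.0504 to 0.0649), as did TGFBI (0.0618 to 0.0744). FBN2 lost it without any TR combination library, TR erdafitinib 1 or 2 or TR vehicle 2 (0.0550 to 0.0816). In TR combination against TR 4-OHT, COL3A1 (0.0962 to 0.157), COL12A1 (0.131 to 0.244) and THBS1 (0.0735 to 0.0850) each lost their calls without some of the 6 libraries. COL3A1 did so without any of them but TR 4-OHT 2, COL12A1 without any but TR combination 1, and THBS1 without TR 4-OHT 1 or 2 or TR combination 2 or 3. The log2 fold changes of all these genes stayed negative in these fits.

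None of the 20 tested genes of collagen processing and cross-linking and none of the 7 other collagens was called over both comparisons, and 1 of 25 other glycoproteins and proteoglycans was, which is 4%, where 1.71% of all genes were called. An unadjusted p under 0.05 was found for 0 of the 20, 1 of the 7 and 7 of the 25, or 0%, 14.3% and 28%, against 11.7% of all genes. The log2 fold change was negative in 16 of the 20, 4 of the 7 and 18 of the 25. The called gene was TNR, which had 22.1, 17.3 and 19.2 CPM in TR combination, against 47.3, 48.2 and 41.1 CPM in TR 4-OHT, and 24.3, 29.8 and 22.2 CPM in TR erdafitinib, against 39.6, 31.1 and 40.4 CPM in TR vehicle. It did not overlap and had a log2 fold change of -0.88 (standard error 0.13; adjusted p = 0.00311). SERPINH1, the collagen chaperone HSP47, stood at 147 ± 32.5 CPM in TR combination, 199 ± 25.8 CPM in TR 4-OHT, 169 ± 29.5 CPM in TR erdafitinib and 195 ± 78.6 CPM in TR vehicle (SD, n = 3 each). The smooth muscle or pericyte markers summed to 40.7 to 70.4 CPM in TR combination, against 65.8 to 120 in TR 4-OHT, and to 43.1 to 77.6 in TR erdafitinib, against 46.0 to 135 in TR vehicle. Of these, RGS5 was called lower, with a log2 fold change over both of -1.41 (standard error 0.32; adjusted p = 0.0379). The fibroblast markers summed to at most 1.54 CPM in TR combination and 1.67 in TR erdafitinib, against 2.72 in TR 4-OHT and 2.53 in TR vehicle, with DPT at 0 in all 4 groups. The part of these markers in the matrix values was not tested.

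Resistant cells on both drugs were compared with parental cells on vehicle to place the matrix genes against the starting line. Of the 30 tested, 20 were called, 16 higher and 4 lower, where 34.6% of all genes were called, 19.4% higher and 15.2% lower. The limits given above on how members were chosen and passed the filter hold here too. The median log2 fold change was 2.05, or 1.88 with genes near 0 in PAR at their bound or ratio, against 0.03 over all genes tested. Without overlap, 17 of the 30 stood higher in TR combination (24.5% of all genes) and 5 stood lower (18.8% of all genes). This comparison shares its PAR libraries with that of TR vehicle, so the 2 are set side by side without a test of their likeness. SPARC and TNC, although lower with erdafitinib, remained far above parental cells, at ratios of 1636 (95% counting interval 559 to 7933) and 2765 (95% counting interval 496 to 109236). VCAN had a log2 fold change of 9.40 (standard error 0.39; adjusted p = 7.89e-10), COL5A1 of 5.42 (standard error 0.65; adjusted p = 1.88e-05) and COL5A2 of 2.76 (standard error 0.28; adjusted p = 4.75e-06). COL3A1 was at least 7.54-fold, FBLN1 at least 7.75-fold, FBN2 at least 4.95-fold and COL17A1 at least 2.80-fold higher against 3 counts over PAR vehicle. LOXL1 had a ratio of 10.01 (95% counting interval 2.55 to 86.4), COL4A5 a log2 fold change of 1.31 (standard error 0.20; adjusted p = 1.41e-04) and COL4A6 one of 1.80 (standard error 0.32; adjusted p = 5.51e-04). MATN2 (1.95), BGN (4.86), COL6A1 (3.33) and COL6A2 (3.50) made up the 16.

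On both drugs FN1 was not called against parental cells, and THBS1, COL12A1, EFEMP1 and TGFBI were lower than in them. FN1 had 44.5, 32.8 and 35.8 CPM in TR combination, against 41.9, 39.9 and 32.9 CPM in PAR vehicle. These overlapped, with a log2 fold change of -0.02 (95% interval -0.37 to 0.33; adjusted p = 0.954). THBS1 had 630.0, 562 and 477 CPM in TR combination, against 1176, 1201 and 1043 CPM in PAR vehicle, and COL12A1 301, 178 and 179 CPM against 831, 676 and 528 CPM. EFEMP1 had 274, 289 and 214 CPM in TR combination, against 445, 428 and 397 CPM in PAR vehicle, and TGFBI 0.118, 0.136 and 0.257 CPM against 1.43, 1.11 and 0.982 CPM. The groups did not overlap for any of these 4, with log2 fold changes of -1.04 (standard error 0.13; adjusted p = 3.52e-05) for THBS1, -1.63 (standard error 0.25; adjusted p = 1.92e-04) for COL12A1, -0.71 (standard error 0.14; adjusted p = 0.00104) for EFEMP1 and -2.74 (standard error 0.56; adjusted p = 0.00170) for TGFBI. Calls were lost for COL6A2 without TR combination 3 (adjusted p = 0.117), PAR vehicle 1 (0.0924) or PAR vehicle 2 (0.0767), for COL6A1 without TR combination 3 (0.0542) and for COL17A1 without PAR vehicle 3 (0.0586). Without PAR vehicle 3 BGN was at least 14.9-fold and LOXL1 at least 2.66-fold higher against 3 counts over PAR vehicle 1 and 2, COL6A2 had a ratio of 51.0 (95% counting interval 9.05 to 2024) and COL6A1 a log2 fold change of 4.91. Without TR combination 3 the log2 fold changes of BGN, COL6A1 and COL6A2 were 4.09, 2.54 and 2.59. Among collagen processing genes 3 of 20 were higher and 2 lower, among other collagens 3 of 7 higher and 1 lower, and among other glycoproteins and proteoglycans 11 of 25 higher and 1 lower. The shares called were 25%, 57.1% and 48%, against 34.6% of all genes.

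Libraries of a group matched less closely for members of high GC content, and the part of this in the results was not tested. The 13 members in the highest quintile of GC content over all tested genes (from 57.3% GC) had a within-group SD of 0.495 to 1.49 (median 1.28) in log2 CPM. The other 17 had 0.116 to 0.726 (median 0.379), and all genes tested a median of 0.382. Over the 30 members, GC content and the slope along the main within-group axis had a Spearman correlation of 0.851, given as a description over genes that share the same libraries. The widest was COL6A1, with 7.73, 8.45 and 25.6 CPM in TR combination, 20.3, 7.97 and 7.19 CPM in TR erdafitinib, 25.0, 5.26 and 11.4 CPM in TR 4-OHT, 5.52, 27.8 and 32.7 CPM in TR vehicle and 0.755, 0 and 2.69 CPM in PAR vehicle. Its highest library in each group was the one at the GC-rich end of the axis or, in TR vehicle, 1 of 2 such libraries. Of the GC-rich members 6 were called in TR vehicle against PAR vehicle and 1, COL5A1, with erdafitinib over both comparisons, against 14 and 8 of the others. The share of all genes called was not computed by GC quintile. Whether this split is particular to matrix genes was therefore not tested. With the axis as a covariate, 28 of the 30 were called in TR vehicle against PAR vehicle and 16 with erdafitinib over both. In the same fits the share of all genes called was 54.8%, against 35.9% without the covariate, and 10.6%, against 1.71%. The axis was itself estimated from the differences among libraries within these groups.

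**Figure D5:**
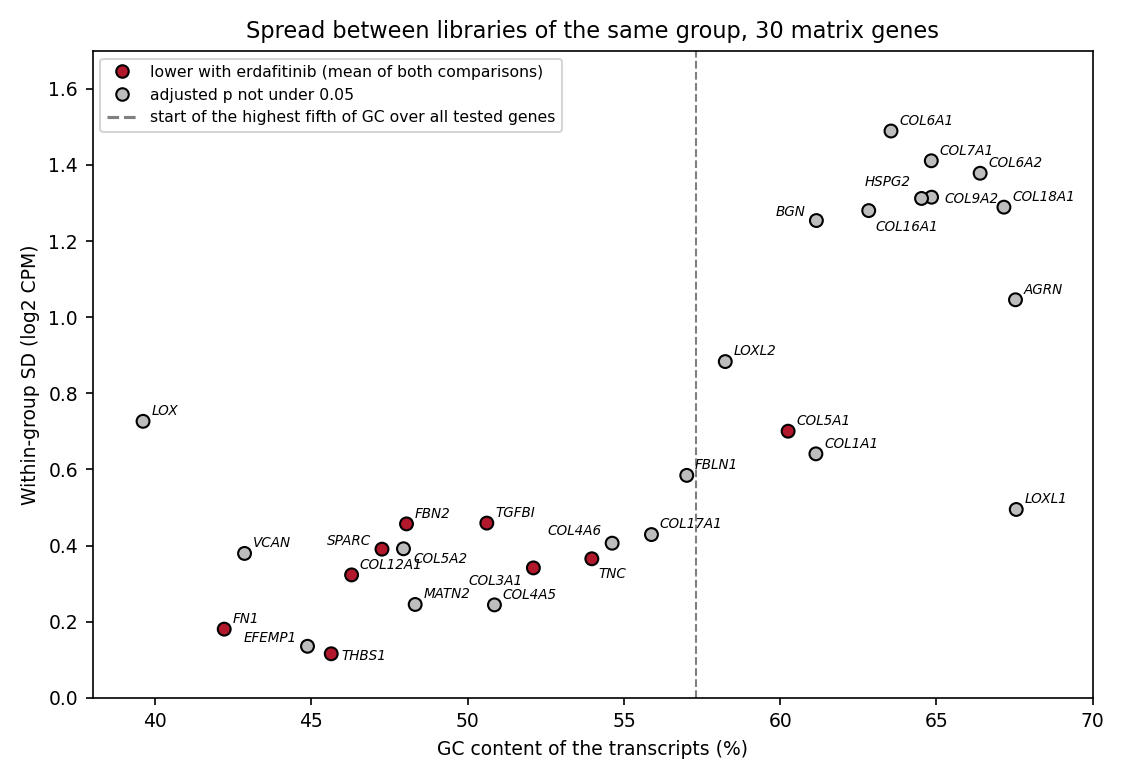
Within-group SD of log2 CPM (vertical axis) against the GC content of the transcripts (horizontal axis, %) for the 30 tested matrix genes, with the genes lower with erdafitinib in red. Genes right of the dashed line at 57.3% GC spread by 0.495 to 1.49, and 8 of the 9 red genes lie left of it.

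Promoter sequence was compared over the members. Of the 43 genes, 31 had a window in the RefSeq table (250 bases before to 50 after the start), and 8 of the 9 genes lower with erdafitinib were among them. The letters GGGCGG stood, on either strand, in 24 of the 31 members (77.4%) and in 7 of the 8, against 45.0% of all 35116 windows. GGAATG stood in 5 of 31 (16.1%) and in COL12A1, SPARC and THBS1 of the 8, against 14.03% of all windows. CAGAC stood in 17 of 31 (54.8%) and 4 of the 8, against 45.3%. TATAAA stood in 6 of 31 (19.4%), against 11.5%, and TGANTCA in 1 of 31 (3.23%), against 7.71%, and neither stood in any of the 8. These are counts of letters in a fixed window, without a test, and the members' GC content was not matched. A member was counted if any of its windows matched (37 windows over the 31), whereas the share of all windows is per window. Of the 31, 22 were among the members tested for expression.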

How the data were processed

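RNA of 15 libraries was prepared with a stranded kit and sequenced paired-end, per the labels. Reads were aligned with HISAT2 2.1.0, per the submitters' processing notes, and counted per gene and strand with featureCounts 2.0.1 against Ensembl 104 on GRCh38, per the file headers; the notes name featureCounts 1.4.6-p1. The deposited values are raw counts per gene. From them, 16210 genes passed edgeR's filterByExpr and were scaled by TMM. One edgeR 4.0.16 quasi-likelihood model with 5 group means (R 4.3.3, 10 residual degrees of freedom) gave every comparison, with Benjamini-Hochberg adjustment over all genes tested. SE is the log2 fold change over the root of F. CPM uses TMM-scaled libraries. GC content comes from GENCODE 29 transcripts. Ratios and bounds of genes with 3 or fewer counts over PAR cover counting error only. The biological coefficient of variation was 30.8%.

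Values of every library are given for members called in a comparison and for SPARC, TNC, FN1 and COL4A1; of each related list the 4 called genes with the largest change in TR vehicle against PAR vehicle are named. The members and lists were chosen with earlier results of these data known. Alternatives were other size factors, other filters, a replicate block, the main axis among libraries of a group as covariate, leaving out libraries, DESeq2 1.42.0 and fits of only the groups compared.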

Additional observations from a re-analysis of the deposited data

How the results depend on the processing

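In TR vehicle against PAR vehicle 18 to 20 of the 30 members were called under other size factors, no filter, the replicate block and without the 2 shallowest libraries, 17 of 25 tested with the CPM filter, 15 of 24 tested with only the groups compared, 21 with DESeq2, 28 with the within-group axis, and 19 to 22 on leaving out 1 library. The CPM filter left COL17A1, LOXL1 and FBN2 untested. With only the groups compared, BGN, COL17A1, LOXL1 and FBLN1 were untested and THBS1 lost its call. The share of all genes called was 35.9% in the main fit, 35.6% with other size factors and 34.2% with the replicate block. It was 18.1% with no filter (42 members tested), 33.6% without the 2 shallowest libraries and 37.9% with the CPM filter. With only the groups compared it was 22.3%, with DESeq2 39%, and on leaving out 1 library 28.1% to 37.2%. Erdafitinib against vehicle in TR called 1 member, but 2 with no filter, 8 with the within-group axis as a covariate, 2 with DESeq2 and 0 with only the groups compared, and 0 to 1 on leaving out 1 library. Of all genes it called 0.0925%, but 0.0829% with no filter, 0.537% with DESeq2 and 0% with only the groups compared. On leaving out 1 library it called 0.0118% to 0.101% of all genes. TR combination against TR 4-OHT called 4, but 12 with the axis, 2 without the 2 shallowest libraries, 7 with DESeq2 and 2 with only the groups compared, and 1 to 3 on leaving out 1 library. Of all genes it called 0.642%, but 0.424% without the 2 shallowest libraries, 1.78% with DESeq2 and 0.433% with only the groups compared. On leaving out 1 library it called 0.267% to 0.376% of all genes. With only the groups compared FN1 kept its call, TNC gained one, and COL3A1, COL12A1 and THBS1 lost theirs. The erdafitinib effect over both called 9, but 16 with the axis and 4 to 10 on leaving out 1 library. Of all genes it called 1.71%, and 0.829% to 2.64% on leaving out 1 library. With the axis the share of all genes called also moved, to 54.8% in TR vehicle against PAR vehicle, 1.71% and 4.6% with erdafitinib without and with 4-OHT, and 10.6% over both. The cause of these shifts was not tested. The axis was estimated from the same within-group differences that the test takes as spread, so counts with it are not an independent check.

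Changes near 0 took the other sign in some fits. SPARC in TR 4-OHT against TR vehicle stood at 0.0027 with the axis and ran from -0.29 to 0.12 on leaving out 1 library (log2). SPARC in TR combination against TR erdafitinib ran from -0.33 to 0.061 on leaving out 1 library, and its interaction from -0.27 to 0.21. FN1 in TR combination against PAR vehicle stood at 0.037 with no filter, 0.020 without the 2 shallowest libraries and -0.14 to 0.088 on leaving out 1 library.

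Correlations of the deviations were over 0.1 in 13 of 30 pairs with the same replicate number (median -0.034). For pairs with other numbers this was 28 of 60 (median -0.0027), so the numbers were not taken as pairs. These deviations include the main within-group axis, so the check cannot exclude a batch shared by libraries of the same number. With the replicate block 20 members were called in TR vehicle against PAR vehicle, 20 in TR combination against PAR vehicle, 1 and 3 with erdafitinib without and with 4-OHT, and 7 over both. In the same order, 34.2%, 32.7%, 0.0555%, 0.469% and 1.15% of all genes were called with the block. The block ended the calls of FBN2 (adjusted p = 0.0588) and TGFBI (0.0531) over both and of COL3A1 (0.0889) in TR combination against TR 4-OHT. Depth limits genes under about 0.5 CPM: 3 counts equalled 0.477 CPM in the shallowest library.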
